A study of Arabidopsis thaliana with 36 samples.

Results

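Glutamine synthetase and glutamate synthase together form the cycle by which plants take ammonium into amino acids. Glutamine synthetase (GS) joins ammonium to glutamate, and glutamate synthase (GOGAT) passes the amide group of glutamine to 2-oxoglutarate, which returns glutamate. In Arabidopsis thaliana the cytosolic GS genes are GLN1;1 (AT5G37600), GLN1;2 (AT1G66200), GLN1;3 (AT3G17820) and GLN1;4 (AT5G16570), and GLN2 (AT5G35630) encodes the plastid enzyme. GLT1 (AT5G53460) encodes the NADH-dependent GOGAT, known for its role in roots and other non-green tissue. GLU1 (AT5G04140) and GLU2 (AT2G41220) encode ferredoxin-dependent GOGATs, the first the main leaf form. These 8 genes were taken by identifier from 32833 in each count table, and 7 of the 8 passed the filter on low counts.

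The series profiled poly-A RNA from Col-0 roots with BrAD-seq, a digital gene expression method that reads transcript 3′ ends. Every plant was grown on mesh over 1 mM KNO3 for 7 days, and 2 h after dawn the mesh was moved to a fresh plate of 1 mM or 10 mM KNO3. Roots were frozen 15, 45, 90 or 180 min after the move, and the 0 min group had its mesh lifted and put back on its own 1 mM plate. The 9 groups held 4 libraries each, 1 from each of 4 batches, and a replicate joined 2 plates. Against 0 min, the later groups differ in time of day and in the move to fresh medium as well, and these cannot be told apart. The 10 mM plates held more potassium as well as more nitrate, as far as the labels describe them.

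The libraries held 1376404 to 7512410 counts, with a median of 5126926. Replicate 4 of 1 mM at 45 min was the shallowest library and stood apart from its group, with a median correlation of 0.912 on log2 CPM against 0.943 for the next lowest library. Root markers were present throughout: PYK10, a root beta-glucosidase gene, had a median of 3175 CPM (CPM is the count of a gene scaled to a common library total). The summed level of 15 shoot photosynthesis genes was 52.8 to 120.3 CPM, largely from LHCA4 at a median of 43.8 CPM. RCA, LHCA1, RBCS1A and LHCA3 also had reads in every library, at medians of 9.8, 8.5, 6.4 and 5.1 CPM. RBCS1B had 0 reads in 28 of 36 libraries, the most among the 15. In whole roots, fewer cells of a type and less RNA per cell cannot be told apart.

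Relative to 0 min, GLT1 and GLN1;2 rose and GLN1;1 and GLN1;4 fell on both media, GLN1;3 passed no test, and no member passed the test between 10 mM and 1 mM KNO3. The stretch upstream of the annotated start is shown here for the 3 cytosolic GS genes that moved on both media, because 1 of them rose and 2 fell. Each is 300 bases long, 5′ to 3′ on the gene's strand, read from the RefSeq assembly TAIR10.1. The submitters' processing notes name TAIR10, and the count tables carry no coordinates. Capitals mark matches to any of 5 short motifs, searched on both strands.
GLN1;2: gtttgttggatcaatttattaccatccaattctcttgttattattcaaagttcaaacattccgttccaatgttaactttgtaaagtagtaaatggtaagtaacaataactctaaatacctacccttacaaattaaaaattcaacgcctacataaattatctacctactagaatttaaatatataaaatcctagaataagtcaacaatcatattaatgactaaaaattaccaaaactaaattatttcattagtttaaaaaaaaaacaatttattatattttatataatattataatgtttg
GLN1;1: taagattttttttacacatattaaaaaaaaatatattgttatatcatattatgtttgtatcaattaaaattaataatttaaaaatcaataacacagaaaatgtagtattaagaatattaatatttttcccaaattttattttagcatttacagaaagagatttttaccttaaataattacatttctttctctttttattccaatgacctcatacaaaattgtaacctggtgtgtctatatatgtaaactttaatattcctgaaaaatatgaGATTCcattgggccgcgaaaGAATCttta
GLN1;4: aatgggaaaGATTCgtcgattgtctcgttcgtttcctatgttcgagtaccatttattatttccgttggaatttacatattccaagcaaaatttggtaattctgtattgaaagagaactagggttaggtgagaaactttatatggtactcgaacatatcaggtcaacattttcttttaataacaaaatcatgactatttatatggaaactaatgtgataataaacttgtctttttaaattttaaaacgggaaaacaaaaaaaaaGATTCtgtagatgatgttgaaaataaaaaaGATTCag
In order, these lie at chr1:24657704-24658003 (minus strand), chr5:14935886-14936185 (minus strand) and chr5:5424750-5425049 (minus strand). The motifs were CACGTG (the G-box), AAATATCT (the evening element of clock-controlled genes), GAATATTC and GAATC (letters known from sites of the nitrate-induced repressors NIGT1/HRS1) and TGNCNCTT (a shortened nitrate-responsive element). All capitals in the sequences shown are GAATC or its reverse complement, which had 2 matches for GLN1;1, 3 for GLN1;4 and 0 for GLN1;2. GAATC was found in 45.0% of 27443 upstream stretches of the same length. The G-box was in 7.09%, the evening element in 5.64%, GAATATTC in 1.02% and TGNCNCTT in 10.5%. Of the 7 members searched (all but GLT1), 4 had GAATC: GLN1;1, GLN1;4, GLU1 and GLU2. GLU2 gave no call in any comparison, and GLU1 was below the filter on low counts, so GAATC was not limited to genes that fell. Only GLU2 had TGNCNCTT, and none had the other motifs. These matches describe the letters in the window, and no site or factor was measured.

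Because reads come from transcript 3′ ends, the last bases decide how well members can be told apart. GLN1;1 and GLN1;2 were 87.5% identical over their aligned coding bases, the highest value among the GS pairs. The longest identical run in the last 500 bases of their annotated transcripts was 44 bases, so a read that falls there could count for either gene. That run was 32 bases for GLN1;2 and GLN1;3, 28 for GLN1;1 and GLN1;4 and at most 15 for the other GS pairs, and for GLU1 and GLU2 it was 10. In TAIR10.1 the end of the longest GLT1 model overlaps the first 127 bases of ACBP1 (AT5G53470), an acyl-CoA-binding protein gene on the same strand. ACBP1 stood at 12.4 to 27.4 CPM, and its log2 fold changes against 0 min lay between -0.01 and 0.18 with no call. GLU1 overlaps BHLH101 (AT5G04150), a gene on the opposite strand with 199 reads over all libraries, by 79 bases. How reads in either overlap were counted is not known.

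**Figure D1:**
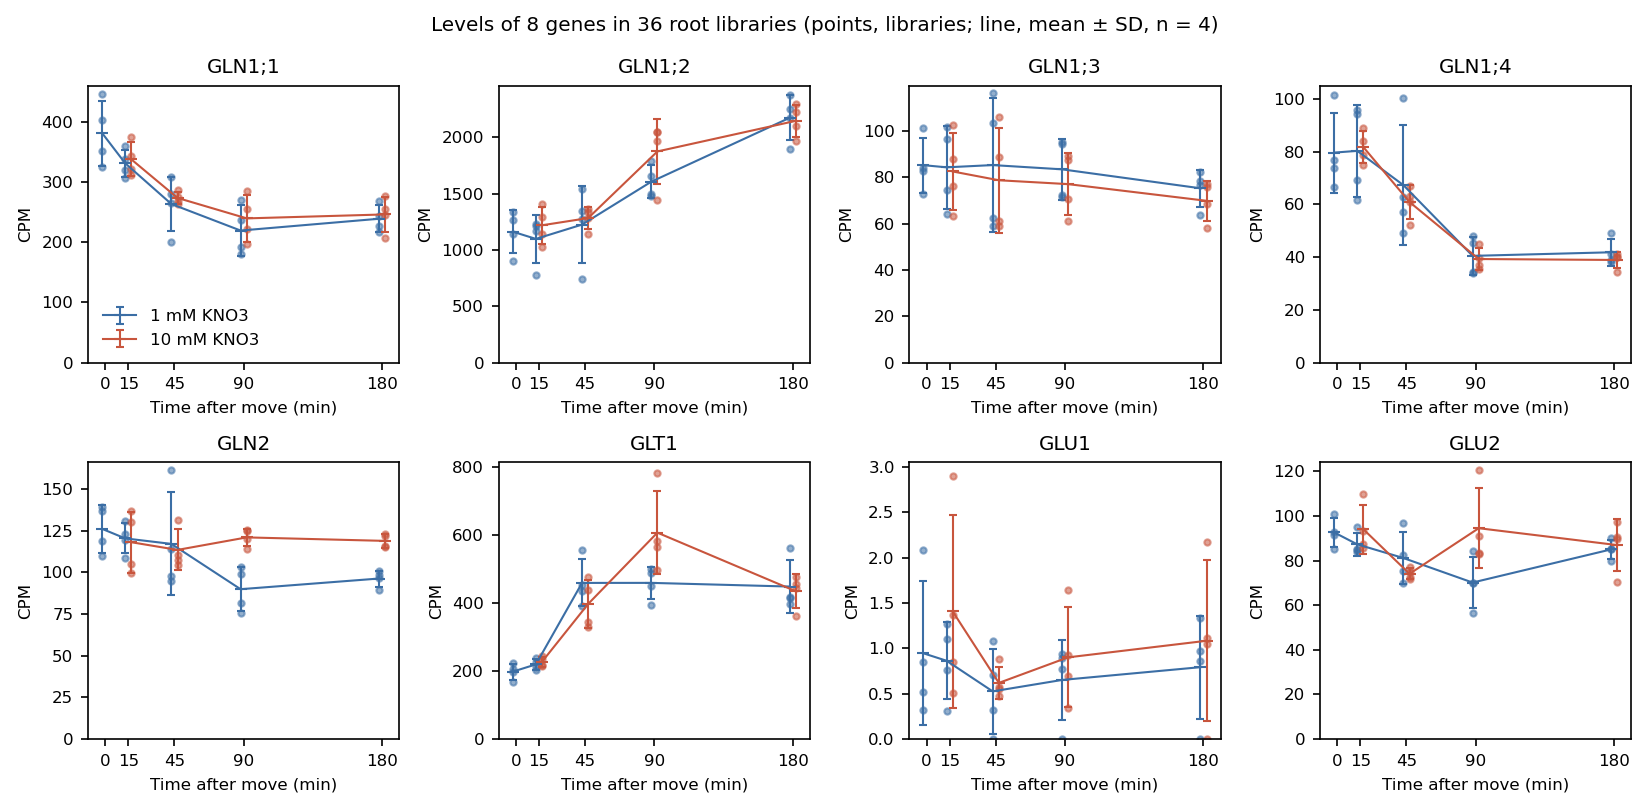
Levels of the 8 genes in CPM against time after the move in min, with 1 point per library and lines for the mean ± SD of 4 libraries at 1 mM (blue) and 10 mM KNO3 (red). GLT1 is above all 4 of its 0 min libraries from 45 min on, GLN1;1 is below all of its 0 min libraries from 45 min on and GLN1;4 from 90 min on, and the GLU1 axis ends near 3 CPM.

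GLT1 rose between 15 and 45 min. At 0 min its 4 libraries had 198, 222, 206 and 167 CPM (replicates 1 to 4). At 15 min they had 202, 225, 238 and 212 CPM on 1 mM and 235, 216, 244 and 214 CPM on 10 mM KNO3. The ranges at 15 min overlap that at 0 min on both media. At 45 min on 1 mM the libraries had 555, 436, 453 and 392 CPM, and on 10 mM 476, 439, 330 and 344 CPM. Every library at 45 min thus exceeded every library at 0 and 15 min. The log2 fold change against 0 min was 1.21 ± 0.14 on 1 mM (SE, n = 4 and 4; adjusted p = 6.62e-08 by edgeR's quasi-likelihood test) and 1.00 ± 0.14 on 10 mM (adjusted p = 2.52e-06).

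On 1 mM KNO3 the level of GLT1 then held: libraries had 501, 451, 489 and 395 CPM at 90 min and 563, 418, 397 and 415 CPM at 180 min. On 10 mM it stood at 782, 564, 582 and 498 CPM at 90 min, the highest mean of the 9 groups (607 ± 122 CPM, SD, n = 4), and at 456, 477, 443 and 361 CPM at 180 min. At 90 min, 3 of the 4 libraries on 10 mM were above all 4 on 1 mM, and the ranges overlap. Against 0 min the log2 fold changes on 1 mM were 1.21 ± 0.14 and 1.18 ± 0.14 at 90 and 180 min (adjusted p = 5.17e-08 and 1.32e-07). On 10 mM they were 1.61 ± 0.14 and 1.13 ± 0.14 (adjusted p = 1.12e-10 and 2.83e-07). The fold was 2.32 at 90 min on 1 mM and 3.06 on 10 mM. In the order of group means, the 6 groups from 45 min on stood above the 3 earlier ones, and the gap between those blocks was the only neighbouring pair whose ranges did not overlap.

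GLN1;2, a low-affinity cytosolic GS known for its induction by ammonium, rose later than GLT1. At 0 min its libraries had 907, 1335, 1271 and 1140 CPM. Its means at 15 and 45 min, from 1099 to 1284 CPM over both media, had ranges that overlap that of 0 min. At 90 min on 1 mM the libraries had 1795, 1479, 1500 and 1656 CPM, all above 0 min, with a log2 difference of 0.47 ± 0.16 that missed the threshold (adjusted p = 0.0702). That difference passed when batch was a block (adjusted p = 0.0200) and by DESeq2 (adjusted p = 0.0480), and the range of its adjusted p over all alternatives was 0.02 to 0.33. At 90 min on 10 mM the libraries had 1967, 2045, 1444 and 2048 CPM, and GLN1;2 was called higher than at 0 min, by 0.69 ± 0.16 (adjusted p = 0.00349).

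At 180 min GLN1;2 had 2171, 1902, 2251 and 2376 CPM on 1 mM and 2231, 1968, 2294 and 2098 CPM on 10 mM. All 8 libraries lay above every 0 min library, and both media overlap. The log2 fold change against 0 min was 0.90 ± 0.16 on 1 mM (adjusted p = 0.000107) and 0.88 ± 0.16 on 10 mM (adjusted p = 0.000157), folds of 1.87 and 1.85. In the order of means, the 4 groups at 90 and 180 min stood above the 5 earlier groups. Where these blocks meet, 1 mM at 90 min and 10 mM at 45 min were the only neighbouring pair without overlap. The blocks themselves overlap, because 1 mM at 45 min reached 1539 CPM. The lowest library at 90 min had 1479 CPM on 1 mM and 1444 CPM on 10 mM.

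GLN1;1, a high-affinity cytosolic GS known from nitrogen-limited roots, fell. At 0 min its libraries had 325, 351, 403 and 446 CPM, and the 8 libraries at 15 min, from 307 to 375 CPM, overlap them. At 45 min they had 280, 266, 308 and 200 CPM on 1 mM and 269, 264, 286 and 276 CPM on 10 mM. All 8 lay below the lowest 0 min library. The log2 fold change against 0 min was -0.53 ± 0.14 on 1 mM (adjusted p = 0.00941) and -0.48 ± 0.14 on 10 mM (adjusted p = 0.0221). Both calls at 45 min are thin. On 1 mM the call was lost without replicate 4 at 0 min (adjusted p = 0.0706), without the shallow replicate 4 at 45 min (0.0632), without batch 4 (0.335) and in a fit of the 8 libraries alone (0.108). On 10 mM it was lost in 8 fits that leave out a library or a batch, with adjusted p from 0.0562 to 0.23. Those fits left out batch 2, 3 or 4, replicate 3 or 4 at 0 min, or replicate 1, 2 or 4 at 45 min.

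By 90 min GLN1;1 stood at 180, 192, 270 and 237 CPM on 1 mM and 222, 197, 285 and 255 CPM on 10 mM. At 180 min it had 217, 227, 268 and 244 CPM on 1 mM and 246, 207, 276 and 256 CPM on 10 mM. None of these 16 libraries reached the lowest value at 0 min. On 1 mM the log2 fold changes against 0 min were -0.80 ± 0.14 and -0.68 ± 0.14 at 90 and 180 min (adjusted p = 5.28e-05 and 0.000567). On 10 mM they were -0.67 ± 0.14 and -0.63 ± 0.14 (adjusted p = 0.000662 and 0.00132).

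GLN1;4, the other high-affinity cytosolic GS, had the largest fall among the 7 tested genes. At 0 min its libraries had 66.8, 73.7, 76.8 and 101.6 CPM. At 45 min they had 62.7, 49.1, 100.4 and 57.1 CPM on 1 mM and 67.2, 52.3, 61.1 and 63.2 CPM on 10 mM, and these ranges overlap 0 min. No call was made at 45 min (adjusted p = 0.513 and 0.208), but on 1 mM a call appeared without replicate 3 of that group, the library at 100.4 CPM (log2 fold change -0.53, adjusted p = 0.0495). At 90 min the libraries had 34.1, 34.4, 48.2 and 45.4 CPM on 1 mM and 35.7, 36.9, 39.8 and 44.8 CPM on 10 mM, all below every 0 min library. The means at 180 min were 41.9 ± 5.1 CPM on 1 mM and 38.9 ± 3.2 CPM on 10 mM. The log2 fold changes against 0 min on 1 mM were -0.97 ± 0.17 at 90 min (adjusted p = 8.87e-05) and -0.95 ± 0.17 at 180 min (adjusted p = 0.000152). On 10 mM they were -1.02 ± 0.17 (adjusted p = 4.49e-05) and -1.04 ± 0.17 (adjusted p = 3.31e-05), folds of 0.49 and 0.48.

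GLN1;3, the remaining cytosolic GS and a low-affinity enzyme, passed no test in any comparison. Its libraries ran from 57.9 to 116.4 CPM, and neighbouring groups overlap throughout its order of means. Against 0 min its log2 differences were -0.18 ± 0.19 on 1 mM and -0.29 ± 0.19 on 10 mM at 180 min. The 95% interval of the latter ran from -0.68 to 0.11, so the data do not exclude a fall as large as that lower bound.

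GLN2, which encodes the plastid GS, gave 1 call. Its 0 min libraries had 137, 109, 139 and 119 CPM, and at 90 min on 1 mM they had 75.9, 81.5, 98.9 and 103 CPM, all lower. The log2 fold change was -0.48 ± 0.13 (adjusted p = 0.0188). That call was lost in 7 fits that leave out a library or batch, with adjusted p from 0.0721 to 0.144: without batch 1, 2 or 3, without replicate 1 or 3 at 0 min, and without replicate 1 or 2 at 90 min. At 180 min on 1 mM the libraries had 96.4, 98.5, 100.5 and 89.5 CPM, again below all of 0 min, with a log2 difference of -0.39 ± 0.13 (adjusted p = 0.0727, 0.0191 with a batch block and 0.0401 by DESeq2). On 10 mM the differences at 90 and 180 min were -0.06 ± 0.13 and -0.08 ± 0.13 (adjusted p = 0.907 and 0.863), and the ranges overlap 0 min.

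Of the ferredoxin-dependent GOGATs, GLU2 was measured in every library, at 56.7 to 120.8 CPM, and gave no call. Its 0 min libraries had 101, 85.3, 93.0 and 91.4 CPM, and at 90 min on 1 mM they had 56.7, 69.9, 84.2 and 69.9 CPM. The highest of the latter is below the lowest of the former, with a log2 difference of -0.39 ± 0.13 (adjusted p = 0.0627, 0.0087 with a batch block and 0.0482 by DESeq2). On 10 mM at 45 min the difference was -0.32 ± 0.13 (adjusted p = 0.191, 0.0486 with the block). GLU1 had 151 reads over all 36 libraries, 0 to 12 per library, and 0 in 4 of them. A count of 0 in those 4 libraries allows up to 0.867 to 2.18 CPM (3 counts, counting error only). It was below the expression filter, and in a fit without that filter it was called in 0 of 14 comparisons (lowest adjusted p = 0.742).

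**Figure D2:**
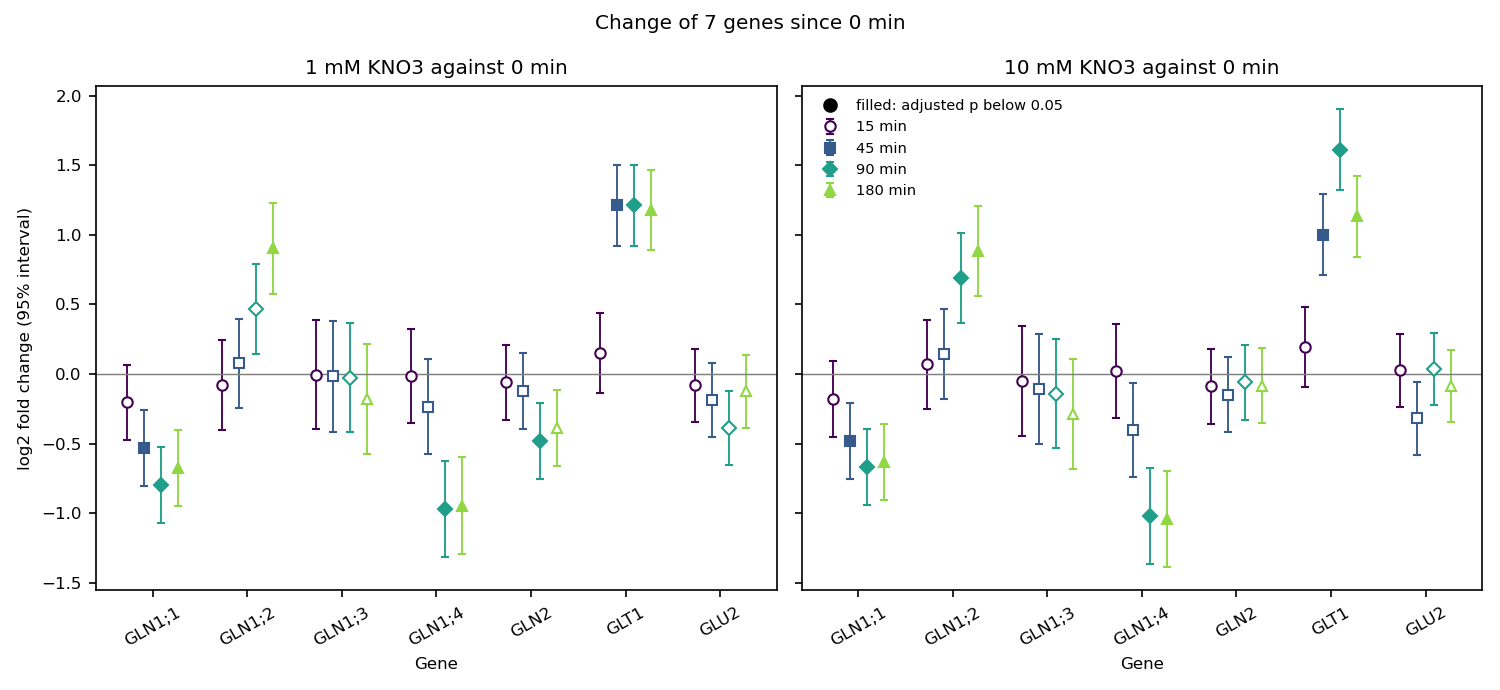
Log2 fold change against 0 min with its 95% interval for 7 genes, at 15, 45, 90 and 180 min on 1 mM (left) and 10 mM KNO3 (right); filled symbols have an adjusted p below 0.05. GLT1 stands near 1.0 to 1.6 from 45 min on, GLN1;4 near -1.0 at 90 and 180 min, and every symbol at 15 min is open. Both panels share the same 4 libraries at 0 min.

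Among the 7 tested genes, the count called against 0 min grew up to 90 min and was the same at 180 min, and the comparisons share the 0 min libraries. At 15 min edgeR called 0 of 7 on 1 mM, where 6.92% of all 18768 genes tested were called, and 0 of 7 on 10 mM, where 5.16% were. At that time 0 of the 7 had an unadjusted p below 0.05 on either medium (lowest adjusted p = 0.605 and 0.774), and DESeq2 also called 0. Over all 18768 genes, 2696 had such a p on 1 mM and 2209 on 10 mM. A count of 0 among 7 does not set the members apart from these shares. At 45 min GLT1 rose and GLN1;1 fell, 2 of 7, on 1 mM (6.99% of all genes) and on 10 mM (5.83%). At 90 min on 1 mM 1 rose and 3 fell (7.14% of all genes), and on 10 mM 2 rose and 2 fell (6.38%). At 180 min 2 rose and 2 fell on 1 mM (7.53%) and on 10 mM (6.85%). The members' median log2 change against 0 min lay between -0.39 and 0.02 over these 8 comparisons, beside medians of all genes between -0.03 and 0.00.

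**Figure D3:**
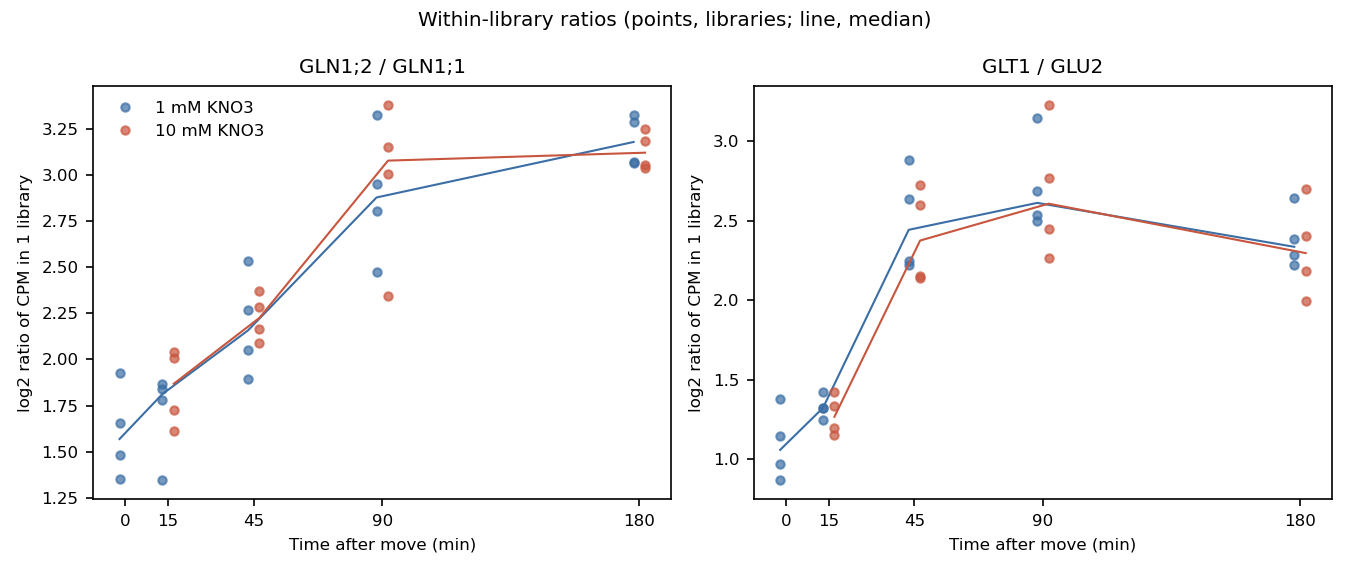
Log2 ratio of CPM within each library for GLN1;2 over GLN1;1 (left) and GLT1 over GLU2 (right) against time after the move in min, with points for libraries and lines for group medians, at 1 mM (blue) and 10 mM KNO3 (red). The first ratio climbs from a median of 1.57 at 0 min to 3.18 and 3.12 at 180 min, and the second from 1.06 to above 2.2 from 45 min on.

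Ratios inside a library do not depend on its depth or scaling. The log2 ratio of GLN1;2 to GLN1;1 was 1.35 to 1.93 at 0 min. At 180 min it was 3.07 to 3.32 on 1 mM and 3.04 to 3.25 on 10 mM, a change of the median of 1.61 and 1.55. No library at 180 min overlaps 0 min. The log2 ratio of GLT1 to GLU2, the NADH-dependent to the ferredoxin-dependent form, was 0.87 to 1.38 at 0 min and 2.22 to 2.88 at 45 min on 1 mM. On 10 mM it was 2.14 to 2.73 at 45 min, and the medians at 90 min were 2.61 on both media. These ratios compare read counts of 2 transcripts, not enzyme amounts, and only their change over time is of use.

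The comparison of 10 mM with 1 mM at the same time asks what the higher KNO3 supply changed beyond the move itself. No member was called at any time. At 15, 45, 90 and 180 min edgeR, fitted without a batch block, called 0 of 7 members and 0% of all genes at each of these times. Over the 28 pairs of gene and time, 4 had an unadjusted p below 0.05, and DESeq2 also called 0. Over all 18768 genes, 486, 915, 873 and 369 had such a p at the 4 times in turn. The log2 differences ran from -0.21 to 0.42, and their 95% intervals reached from -0.51 to 0.69, folds of 0.70 to 1.61. For the mean over the 4 times 0 of 7 members were called (0.016% of all genes, 3 of 18768). At an unadjusted p below 0.05 there was 1 member, beside 902 of all genes. That member was GLN2, at 0.17 ± 0.07 (adjusted p = 0.947, higher in 4 of 4 batches). With a batch block 0 members were called, and over all genes 2, 0, 9 and 0 were called at the 4 times in turn and 44 for the mean.

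The 4 pairs with a low unadjusted p were GLN2, GLT1 and GLU2 at 90 min and GLN2 at 180 min. At 90 min GLN2 had 125, 114, 125 and 120 CPM on 10 mM and 75.9, 81.5, 98.9 and 103 CPM on 1 mM. These ranges do not overlap. The log2 difference was 0.42 ± 0.13 (adjusted p = 0.844), and it was 0.22 to 0.72 within the 4 batches. At 180 min it had 116, 115, 123 and 122 CPM on 10 mM, again apart from 1 mM, with a difference of 0.30 ± 0.13 (adjusted p = 1).

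GLU2 at 90 min had 83.3, 82.8, 121 and 91.3 CPM on 10 mM, and 3 of its 4 libraries on 1 mM lay below all of these. The difference was 0.42 ± 0.13 (adjusted p = 0.844), from 0.24 to 0.55 within batches. GLT1 at 90 min differed by 0.40 ± 0.14 (adjusted p = 0.923), from 0.25 to 0.64 within batches. For each of these 3 genes the 10 mM library was higher in 4 of 4 batches at 90 min, and none of the 3 passed adjustment over all genes. Over the alternative fits, the batch block among them, the lowest adjusted p at 90 min was 0.161 for GLN2, 0.148 for GLT1 and 0.118 for GLU2. For the test that the KNO3 difference changes with time, 0 of 7 members were called, as were 0% of all genes (405 at an unadjusted p below 0.05, 0 by DESeq2). GLT1, GLU2 and GLN2 had an unadjusted p below 0.05 there (adjusted p = 1 for each).

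**Figure D4:**
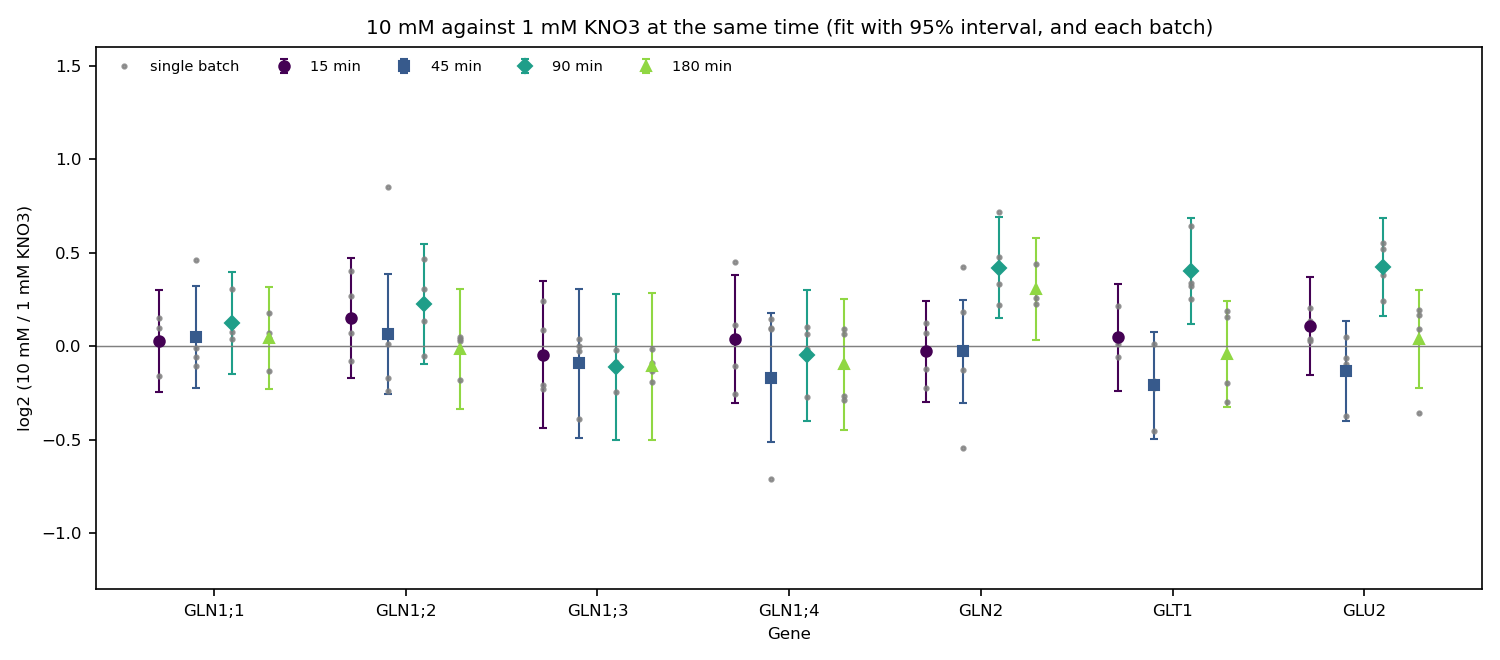
Log2 difference of 10 mM against 1 mM KNO3 at the same time for 7 genes, with the fitted value and its 95% interval (coloured symbols) and the difference within each of 4 batches (grey points). At 90 min GLN2, GLT1 and GLU2 stand at 0.40 to 0.42 with all 4 batches above 0, and no symbol in the plot passed the adjusted threshold.

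For the cytosolic GS genes the KNO3 intervals bound what could be missed. GLN1;1 differed by 0.03 to 0.12 over the 4 times, with 95% intervals inside -0.25 and 0.40. GLN1;4 differed by -0.17 to 0.04, with intervals inside -0.51 and 0.38. GLN1;3 differed by -0.11 to -0.05, with intervals inside -0.50 and 0.35. GLN1;2 differed by -0.02 at 180 min, with an interval from -0.34 to 0.30, and by 0.22 at 90 min, with an interval from -0.10 to 0.54. These intervals do not show that both media acted alike.

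Upstream of the cycle, the genes of nitrate reduction and reductant supply also rose at 45 min. Of the 11 in that list 10 rose at 45 min against 0 min on each medium, beside a median of 0.60 on 1 mM and 0.85 on 10 mM, and 0 fell. At 15 min 5 rose on 10 mM and 0 on 1 mM. In the direct test of 10 mM against 1 mM 0 of 11 passed at any time, and 0% of all genes did. Median differences were 0.17 to 0.28, and 10, 8, 11 and 11 of the 11 differences were positive at 15, 45, 90 and 180 min. At 90 and 180 min 1 and 4 rose on 1 mM and 7 and 7 on 10 mM, and 0 fell at any time. Over all genes, 5.16% to 7.53% were called in the comparisons with 0 min. The 1 of 11 at 90 min on 1 mM is near the 7.14% of all genes called there. NIA1 (AT1G77760), a nitrate reductase gene, rose by 1.21 ± 0.21 on 1 mM and 1.40 ± 0.21 on 10 mM at 45 min (adjusted p = 0.000102 and 8.4e-06). NIR1 (AT2G15620), the nitrite reductase gene, rose by 0.97 ± 0.15 and 1.14 ± 0.16 (adjusted p = 1.93e-05 and 1.03e-06). On 10 mM, RFNR1 (AT4G05390), a root ferredoxin-NADP reductase that supplies reduced ferredoxin, rose by 1.06 ± 0.16 at 45 min (adjusted p = 1.3e-05). AT1G64190, a 6-phosphogluconate dehydrogenase gene, was called higher at 45, 90 and 180 min on 1 mM, by 0.72 ± 0.14, 0.58 ± 0.13 and 0.59 ± 0.13 (adjusted p = 0.00027, 0.00312 and 0.00269).

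Downstream, genes that move amino groups out of glutamine and glutamate changed in both directions. Of 13, 3 rose and 1 fell at 45 and at 90 min on 1 mM, and 4 rose and 1 fell at 180 min. On 10 mM 2, 4 and 4 rose and 1 fell at each of these times. Over all genes, 6.99%, 7.14% and 7.53% were called on 1 mM at these times, and 5.83%, 6.38% and 6.85% on 10 mM. The 1 fall among 13 is near these shares. At 15 min 0 rose, and GDH3 was called lower on 1 mM (-0.64 ± 0.20, adjusted p = 0.0381). The list's median log2 change against 0 min lay between -0.11 and 0.27 over the 8 comparisons. ASN1 (AT3G47340), a glutamine-dependent asparagine synthetase known as a dark-inducible gene, rose by 2.41 ± 0.31 at 90 min on 1 mM and 2.09 ± 0.31 on 10 mM (adjusted p = 4.08e-07 and 6.17e-06). GDH1 (AT5G18170) and GDH2 (AT5G07440), the glutamate dehydrogenases that release ammonium from glutamate, rose by 0.96 ± 0.16 and 1.51 ± 0.19 at 90 min on 1 mM (adjusted p = 2e-05 and 2.9e-07). GDH3 (AT3G03910), another such gene, fell by 1.73 at 180 min on 1 mM (SE 0.21, adjusted p = 1.97e-07) and by 1.24 on 10 mM (SE 0.20, adjusted p = 3.26e-05).

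Of 6 ammonium transporter genes 4 were measured, and their median log2 change against 0 min lay between -0.44 and 0.03. On 1 mM 1 fell at 15 min, 1 fell at 45 min, and 1 rose at 90 and at 180 min. On 10 mM 1 fell at 15 min, 2 at 45 min, 0 at 90 min and 1 at 180 min, and 0 rose. In these 8 comparisons 5.16% to 7.53% of all genes were called. AMT1;2 (AT1G64780), an ammonium importer of root inner layers, fell at 45 min by 0.64 (SE 0.18, adjusted p = 0.0182) on 1 mM and by 0.86 (SE 0.18, adjusted p = 0.000896) on 10 mM. AMT2;1 (AT2G38290) was called higher on 1 mM at 90 and 180 min, by 0.56 ± 0.17 and 0.68 ± 0.17 (adjusted p = 0.0277 and 0.00581). Among 13 genes of carbon skeleton supply and plastid exchange, 1 was called at 45 min on each medium, near the 6.99% and 5.83% of all genes called there. It was DIT1 (AT5G12860), the plastid carrier that brings in 2-oxoglutarate for GOGAT, which rose by 0.48 ± 0.13 and 0.49 ± 0.13 (adjusted p = 0.0184 and 0.0181). At 90 min 1 rose and 2 fell on 1 mM and 1 fell on 10 mM, and at 15 and 180 min 0 were called on either medium. DIT2.1 (AT5G64290), the carrier that exports glutamate, fell at 90 min by 0.50 (SE 0.15, adjusted p = 0.0258) and 0.52 (SE 0.15, adjusted p = 0.0213). Between 10 mM and 1 mM 0 members of these lists were called at any time.

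Of 3 phloem markers 1 was called higher at 90 min and 1 at 180 min on each medium, beside list medians of 0.15 to 0.37. Over all genes, 5.83% to 7.53% were called in the comparisons with 0 min from 45 min on. Their summed level was 87.8 to 107 CPM at 0 min, 117 to 142 CPM at 90 min over both media and 139 to 167 CPM at 180 min. The called gene was SUC2 (AT1G22710), the companion-cell sucrose carrier, with a median of 65.3 CPM, which rose by 1.01 ± 0.17 and 1.04 ± 0.17 at 180 min (adjusted p = 4.98e-05 and 2.93e-05). Of 7 root markers 1 was called at 180 min on each medium and 4 had a positive difference, beside list medians of 0.14 and 0.24. The called gene was PYK10, which rose by 0.66 ± 0.18 and 0.79 ± 0.18 at 180 min (adjusted p = 0.0145 and 0.00289). Another root marker, SHR (AT4G37650), was called higher on 1 mM at 45 and 90 min, by 0.60 ± 0.18 and 0.59 ± 0.18 (adjusted p = 0.037 and 0.0313). Of 4 root hair markers only COBL9 (AT5G49270) was called, and it fell. It fell by 0.67 at 90 min on 1 mM (SE 0.16, adjusted p = 0.00568) and by 0.55 at 45 min on 10 mM (SE 0.16, adjusted p = 0.036). The shoot list's sum was 75.1 to 87.3 CPM at 0 min and 87.4 to 120 CPM at 180 min. Of its 7 measured genes only LHCA4 (AT3G47470) was called, higher at 180 min on 10 mM by 0.56 ± 0.18 (adjusted p = 0.0471). The part of these markers in the changes of GLN1;2 was not tested.

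The genes most like each member were ranked by Pearson correlation of log2 CPM over the 36 libraries, with batch means removed, among 17749 other genes. The libraries share batches and the time course, so these values are descriptions. For GLT1 they were VSP2 (AT5G24770), a jasmonate-responsive storage protein gene, at r = 0.939, the sulfate transporter gene SULTR1;2 (AT1G78000) at 0.933 and GCL1 (AT5G65280) at 0.924. For GLN1;2 they were the metallothionein gene MT1C (AT1G07610) at 0.924, AT3G01190 at 0.922 and AT1G54410 at 0.917. For GLN1;4 the asparaginase gene ASPGB1 (AT3G16150) led at 0.881, and for GLN1;1 AT4G17670 led at 0.902, before the protease gene RD21A (AT1G47128) at 0.894. The best match was lower for GLU2 (0.772), GLN2 (0.742) and GLN1;3 (0.714).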

How the data were processed

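Roots of 36 libraries were measured by BrAD-seq, and the authors deposited 1 table of unnormalized read counts for each. Per the submitters' processing notes, HTSeq, Bowtie2, SAMtools and FastQC were used with build TAIR10. How they were set, and whether strand was used, is not given in the sources used here. Groups and replicate numbers (batches) came from the labels, which do not say how batches were sown, so p-values reflect the scatter among these libraries, which may be technical.

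The counts were tested with edgeR 4.0.16 (R 4.3.3): TMM scaling, filterByExpr, 1 quasi-likelihood model of the 9 groups without a block, two-sided tests, Benjamini-Hochberg adjustment over 18768 genes in each of 14 comparisons and a threshold of 0.05. The SE is the size of the log2 difference divided by the root of F, so it and the 95% intervals are approximate. CPM used the TMM-scaled library sizes. Replicate pairs within groups differed by more than sampling noise (chi-square per degree of freedom 2.62 to 11.6 over 54 pairs), so each library counted once.

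The replicate numbers pair samples because the labels name a batch; 31 of 36 libraries were nearest to their own number, with a median correlation of deviations of 0.20 for the same number and -0.07 for other numbers. Alternatives were RLE scaling, no filter, DESeq2 1.42.0, the replicate block, fits restricted to the compared libraries, and fits that drop 1 library or 1 batch. Named genes were all 8 members, up to 3 called genes per pathway or marker list and comparison whose mean log2 CPM reached 1, and the 3 genes most like each member. Members and lists were chosen with earlier results of these data known. The motifs searched were chosen in the same way. Gene models and upstream sequences came from the RefSeq annotation of TAIR10.1, in which 8 of 8 members matched; the upstream stretch of GLT1 is not reported here.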

Additional observations from a re-analysis of the deposited data

Results flagged for a closer look

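A library standing far from the other 3 of its group was looked for in 63 groups of 4 libraries, and 4 were found, where chance gives about 1 in 20. Replicate 1 of 1 mM at 15 min had GLN1;2 at 780.2 CPM, while the other 3 had 1169 to 1236 CPM. Replicate 3 of 10 mM at 90 min had GLN1;2 at 1444 CPM, while the others had 1967 to 2048 CPM. Replicate 1 of 1 mM at 180 min had GLT1 at 562.6 CPM against 397.4 to 418.2 CPM. Replicate 3 of 1 mM at 15 min had GLU2 at 95.15 CPM against 84.03 to 85.21 CPM.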

How the results depend on the processing

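Of the 20 member results called, 17 were called in every alternative run. The other 3 were GLN1;1 at 45 min on each medium and GLN2 at 90 min on 1 mM, and no called result changed its sign. Of 2072 recomputed member values, 19 lost a call and 13 gained one. Differences that were not called changed sign in 101 cases, in 10 of them by more than 1 SE. The replicate block changed the call of 4 member results, all gained (GLN1;2, GLU2 and GLN2 on 1 mM and GLU2 on 10 mM), and no other.

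Counts over all genes depended more on the fit. With the replicate block, genes called against 0 min were 2193, 2214 and 2287 on 1 mM (45, 90 and 180 min) and 1733, 2008 and 2029 on 10 mM. For 10 mM against 1 mM the block gave 2 genes at 15 min, 9 at 90 min and 44 for the mean over times, where DESeq2 gave 19 and a fit of only the libraries compared 0. A fit of only the libraries compared gave 658 genes and 1 member at 45 min on 1 mM. Leaving out a library or batch gave 641 to 1287 genes on 1 mM at 45 min, 751 to 1449 at 90 min and 736 to 1539 at 180 min. On 10 mM it gave 612 to 1012 at 15 min, 513 to 1180 at 45 min, 665 to 1306 at 90 min and 703 to 1393 at 180 min. For 10 mM against 1 mM it gave 0 to 1 at 15 min and 0 to 5 for the mean. Members called at 45 min were 1 to 3 on 1 mM and 1 to 2 on 10 mM. The lowest gene counts came without batch 3 and the highest, in 6 of these 7, without replicate 4 of 1 mM at 45 min; the cause was not tested. GLU1 had too few reads for any change to be measured.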
